A study of Homo sapiens with 18 samples.

Results

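The Notch pathway was followed in lymphoma cell lines through 10 genes: the receptors NOTCH1, NOTCH2 and NOTCH3, the ligands JAG1 and JAG2, the modifiers MFNG and DTX1, the nuclear factor RBPJ and the targets HES1 and HEY1. They were taken by name, and all 10 had a probe set annotated to that symbol alone among the 18417 genes measured on 18 arrays. Where a gene had more than 1 such probe set, the brightest on average was used. Total RNA was measured on Affymetrix whole-transcript arrays in 6 groups of 3 arrays. L428 comes from classical Hodgkin lymphoma, a B-cell tumour in which most B-cell genes are off. L428-PAX5 is an L428 line in which mifepristone switches on PAX5, the master regulator of B-cell identity. The groups L428+M and L428-PAX5+M received 0.25 nM mifepristone for 5 days. In L428+MAT and L428-PAX5+MAT, 2 days of mifepristone were followed by 3 days with 3 µM 5-aza-2'-deoxycytidine, an inhibitor of DNA methylation, and trichostatin A, an inhibitor of histone deacetylases, was present at 640 nM for the final 24 hours. The Burkitt lymphoma lines Raji and Namalwa had no treatment. All L428 groups thus carried mifepristone, the Burkitt groups did not, and the L428-PAX5 medium also held 25 mM HEPES. PAX5, parental line and medium cannot be told apart where L428-PAX5 is set against L428, and lymphoma type and mifepristone cannot be told apart where the Burkitt lines are set against L428. Uninduced L428-PAX5 cells were not analysed here. For L428-PAX5+MAT, sample titles read L425-PAX5 but the cell line field reads L428-PAX5, which was used.

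Notch receptors are cut at the membrane when they bind a Jagged or Delta ligand on a neighbouring cell. The freed intracellular part enters the nucleus, joins RBPJ and Mastermind proteins on DNA and switches on targets such as the HES and HEY repressors. In the B lineage, NOTCH2 supports marginal zone B cells, NOTCH1 drives the T-cell fate instead, and PAX5 is known to repress Notch1 in mouse B-cell precursors. NOTCH1 activity has been described in Hodgkin cells, where it opposes B-cell gene expression.

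The labels held against marker genes. PAX5 read 12.67 to 12.85 on the log2 scale on all 6 L428-PAX5 arrays, 10.77 to 11.31 in the Burkitt lines and 6.7 to 7.28 on 5 of the 6 L428 arrays, with L428+M replicate 1 apart at 8.64. The mean of 8 measured B-cell markers was 10.01 to 11.25 on the Burkitt arrays and 6.11 to 6.46 on all arrays of L428 and L428-PAX5, while 9 Hodgkin-cell markers averaged 9.74 to 10.44 in the latter and 7.11 to 7.31 in the Burkitt lines. Single Hodgkin markers moved both ways between L428 groups: in L428-PAX5+MAT against L428+MAT 5 of the 9 were lower, among them TNFRSF8 (CD30, -2.04 ± 0.21, adjusted p = 5.74e-07), and CSF1R was higher (3.12 ± 0.18, adjusted p = 7.92e-10). CSF1R in L428+M, at 6.45, was near its Burkitt level of 6.28 to 6.47, and the part of these shifts in the Notch results was not tested. Markers of T and NK cells (9 genes), myeloid cells (7) and fibroblasts (6) averaged 5.2 to 5.92 everywhere. Single genes departed from these averages: CD7 had group means of 8.3 to 8.52 and COL1A1 of 7.4 to 8.33. COL1A1 rose by 0.71 ± 0.17 with the drugs in L428-PAX5 (adjusted p = 0.00331), and its part in the Notch results was not tested. PECAM1, of the endothelial list, differed by group, from 6.63 in L428-PAX5+M to 9.47 in L428+MAT, while VWF, CDH5, KDR and TEK averaged at most 6.24 in any group, and the part of PECAM1's pattern in the Notch results was not tested. Arrays of a group correlated across genes with r from 0.9628 to 0.9961. Separate cultures are not stated in the labels for the replicates of a group, so each p-value reflects only how far these arrays differ, and that spread may be technical.

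**Figure D1:**
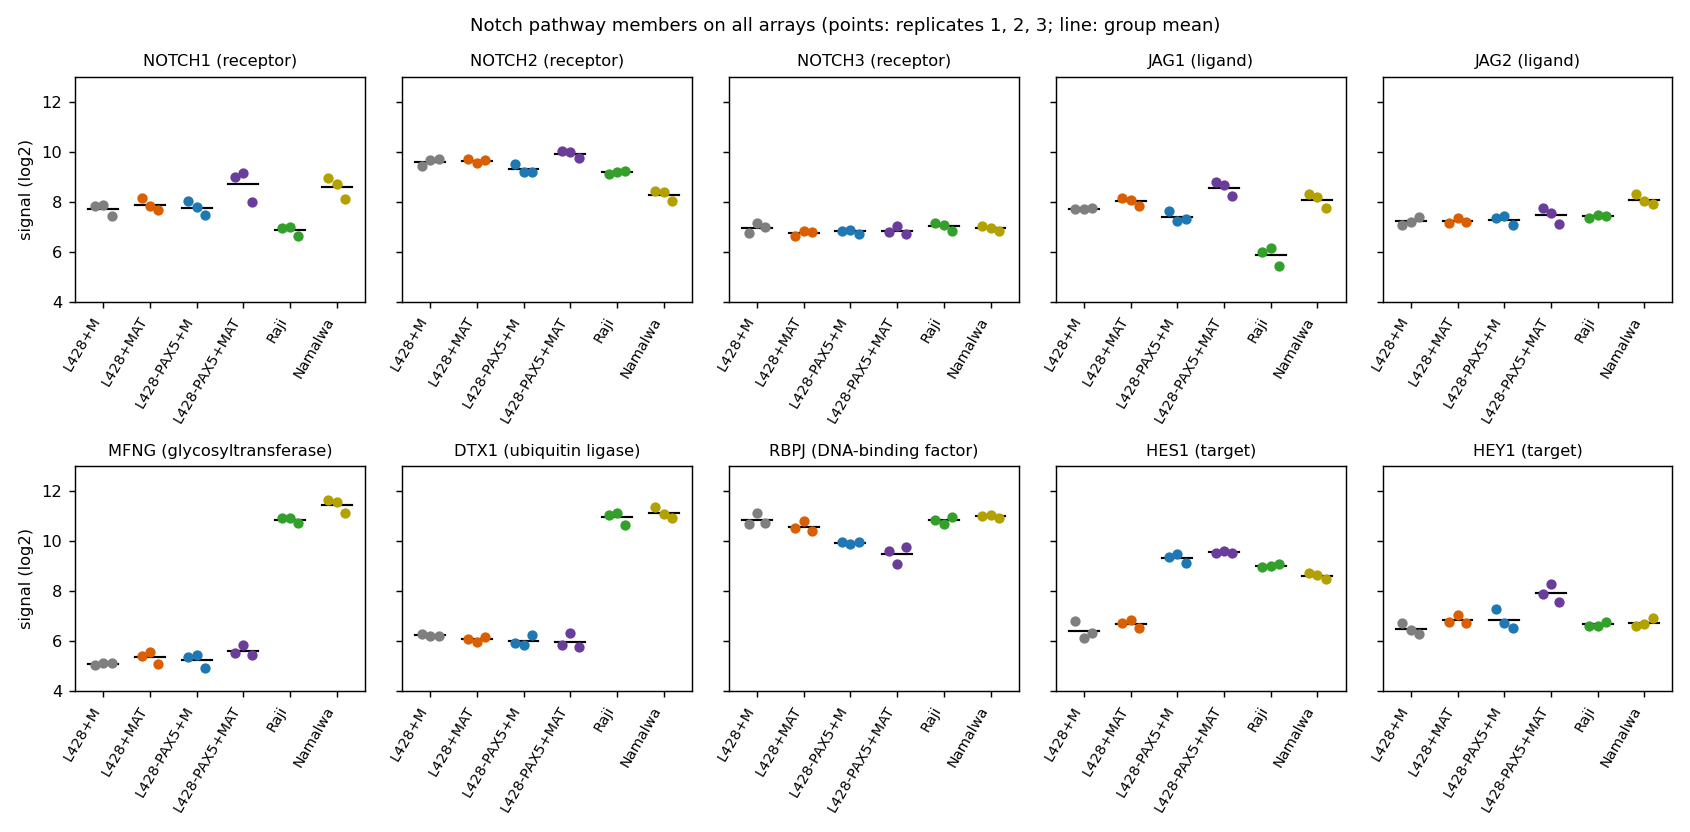
Signal (log2, vertical axis) of the 10 Notch genes in the 6 groups, with 1 point per array in the order of replicates 1, 2 and 3 and a line at the group mean. HES1 was between 9.13 and 9.63 on the L428-PAX5 arrays and between 6.15 and 6.84 on the L428 arrays, whereas MFNG and DTX1 were high only on the Raji and Namalwa arrays among these groups.

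Several patterns stood out. HES1 differed between L428-PAX5 and L428 with or without drugs, MFNG and DTX1 were high in the Burkitt lines and low in every L428 group, and NOTCH1, NOTCH2, JAG1 and HEY1 rose with the drugs in L428-PAX5. RBPJ was lower in L428-PAX5 than in L428, JAG2 was highest in Namalwa and NOTCH3 was flat. Changes were tested with limma over all genes, and a gene passed at a Benjamini-Hochberg adjusted p below 0.05. Between L428-PAX5+M and L428+M, 2 of the 10 passed (HES1 higher, RBPJ lower), where 16.3% of all genes passed (9.72% higher, 6.55% lower). Between Raji with Namalwa and L428+M, 6 of 10 passed (MFNG, DTX1, HES1 and JAG2 higher, NOTCH2 and JAG1 lower) against a background of 35.4% (18.7% higher, 16.7% lower). The drugs moved none of the 10 past the threshold in L428 (background 4.84%, with 4.21% higher and 0.635% lower), also at an unadjusted p below 0.05, with changes from -0.26 to 0.36. In L428-PAX5 they raised 4 of 10 and lowered none (background 33.7%, with 14.2% higher and 19.4% lower), where 1 gene, RBPJ, was lower at an unadjusted p below 0.05. Under the drugs, 4 of 10 were higher and 1 lower in L428-PAX5+MAT than in L428+MAT (background 32%, with 14.3% higher and 17.7% lower). Between Raji and Namalwa, 5 of 10 passed, 1 higher and 4 lower in Raji (background 19.2%, with 7.74% higher and 11.5% lower). The members' total shares lay near the background in the first of these comparisons and for the drugs in L428 and in L428-PAX5. By direction, the drugs in L428-PAX5 gave 4 of 10 higher against 14.2% and none lower against 19.4%, a split that was not tested. This background depends on normalization: of all calls there 42.3% were higher, and 50% with quantile normalization repeated. The median change of the 10 genes was between -0.17 and 0.28, against medians of all genes between -0.04 and 0.04.

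**Figure D2:**
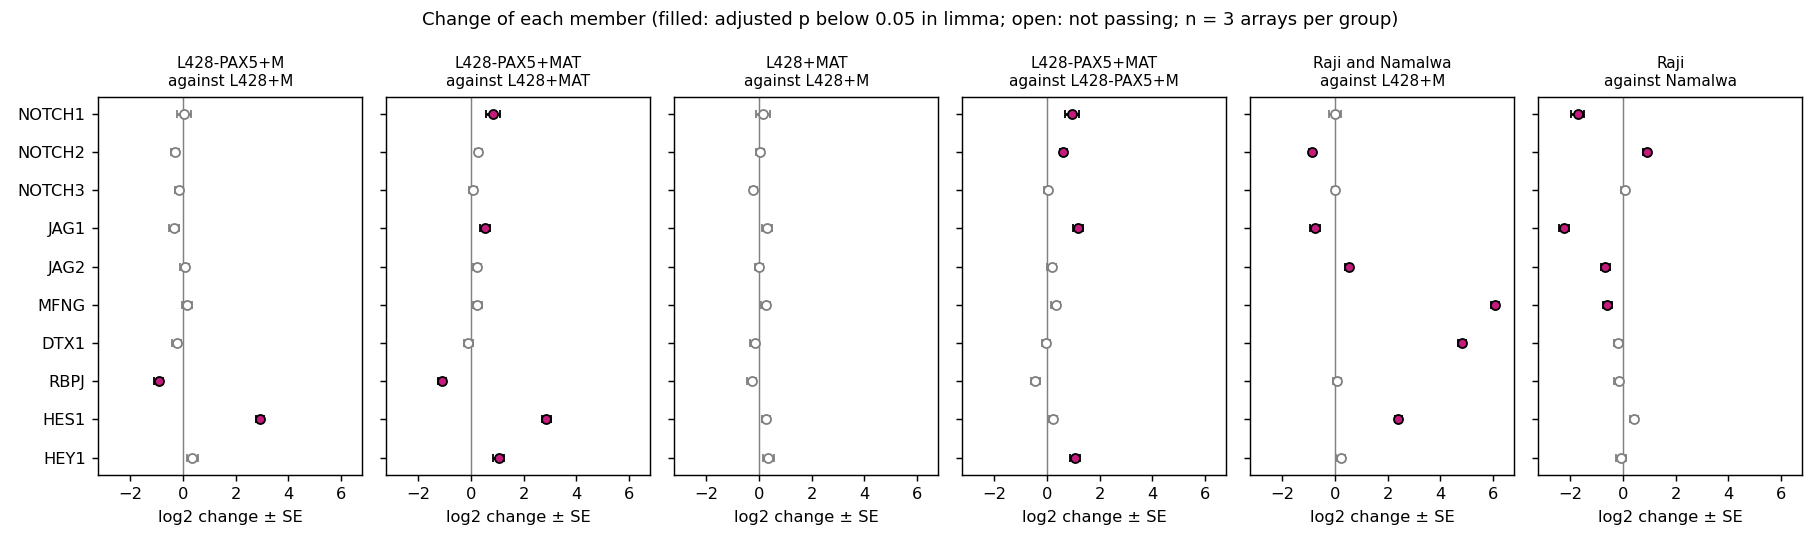
Change of each gene in 6 comparisons (horizontal axis, log2 difference of group means with its standard error), with filled points for an adjusted p below 0.05 and open points otherwise. MFNG and DTX1 stood at 6.06 and 4.81 in the comparison of the Burkitt lines with L428+M and between -0.59 and 0.34 in the others, and HES1 stood at 2.91 and 2.86 in the comparisons of L428-PAX5 with L428.

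Of the receptors, NOTCH1 was the most variable within groups. L428+M arrays read 7.84, 7.9 and 7.44, those of L428-PAX5+M 8.06, 7.8 and 7.48, and those of L428+MAT 8.15, 7.86 and 7.67. These groups overlapped, and L428-PAX5+M differed from L428+M by 0.05 ± 0.26 (log2 change ± SE, n = 3 per group, adjusted p = 0.942). In L428-PAX5+MAT the arrays read 9.01, 9.18 and 8.02, so replicates 1 and 2 lay above every other L428 array and replicate 3 fell within their range. NOTCH1 rose by 0.96 ± 0.26 with the drugs in L428-PAX5 (1.94-fold, adjusted p = 0.00847), a call lost without L428-PAX5+MAT replicate 2 (0.74). Its interaction of line and drugs was 0.79 ± 0.37 (adjusted p = 0.17) and passed without L428-PAX5+MAT replicate 3 (1.15, adjusted p = 0.013). It was 0.84 ± 0.26 higher in L428-PAX5+MAT than in L428+MAT (adjusted p = 0.0189), and this did not pass on leaving out L428+MAT replicate 2 (0.83) or 3 (0.73) or L428-PAX5+MAT replicate 1 (0.71) or 2 (0.62), or with only these groups in the fit (0.84, adjusted p = 0.0536). The Burkitt lines lay on either side of L428. NOTCH1 read 8.95, 8.72 and 8.13 in Namalwa and 6.98, 7.02 and 6.66 in Raji, which was the lowest group and 3.28-fold below Namalwa (-1.72 ± 0.26, adjusted p = 6.77e-05). The mean of Raji and Namalwa differed from L428+M by little against its error (0.01 ± 0.23, adjusted p = 0.981).

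NOTCH2, the receptor of mature B cells, was lower in the Burkitt lines. Its arrays read 9.43, 9.67 and 9.72 in L428+M, 9.13, 9.21 and 9.25 in Raji and 8.44, 8.4 and 8.05 in Namalwa, with no overlap between the 3 groups. Raji and Namalwa together were 1.82-fold below L428+M (-0.86 ± 0.12, adjusted p = 8.84e-06), and Raji was 1.87-fold above Namalwa (0.90 ± 0.14, adjusted p = 6.71e-05). In the order of the Burkitt lines, NOTCH2 was thus the reverse of NOTCH1. L428-PAX5+M read 9.51, 9.22 and 9.21 and L428-PAX5+MAT 10.03, 10.02 and 9.77. The drugs raised it by 0.63 ± 0.14 in L428-PAX5 (1.54-fold, adjusted p = 0.00165). In L428 the drug difference was 0.05 ± 0.14 (adjusted p = 0.926), and the interaction of line and drugs, the difference between both responses, was 0.58 ± 0.20 (adjusted p = 0.0512). It passed with the replicate block (adjusted p = 0.0292), array medians subtracted (0.0394), quantile normalization repeated (0.84, adjusted p = 0.0049) or brighter genes only (adjusted p = 0.0396). It also passed without L428+M replicate 1 (0.67), L428-PAX5+M replicate 1 (0.68) or L428-PAX5+MAT replicate 3 (0.66). L428-PAX5+M differed from L428+M by -0.30 ± 0.14 (adjusted p = 0.18). NOTCH2 has near-identical partial copies in the genome, and a further probe set annotated to NOTCH2 together with NOTCH2NLA and NOTCH2NLB was not used, so its signal may include those copies. The shared probe set did not repeat the Burkitt difference, with group means of 10.02 in L428+M, 10.42 in Raji and 9.9 in Namalwa. It was higher with drugs in both lines, at 10.38 in L428+MAT, where its arrays did not overlap with those of L428+M, and at 10.96 in L428-PAX5+MAT against 10.16 in L428-PAX5+M. These differences of the shared probe set were not tested.

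NOTCH3 was the flattest of the 10 genes. Its group means ran from 6.77 in L428+MAT to 7.03 in Raji, neighbouring groups in that order overlapped throughout, and no comparison passed (changes from -0.21 to 0.24). The span of 0.26 between its highest and lowest group was larger than that of 8.4% of all genes, where the median span was 0.8. NOTCH4, the remaining receptor, had group means of 6.67 to 7.01.

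The ligands JAG1 and JAG2 were both lower in Raji than in Namalwa. JAG1, which activates Notch on neighbouring cells, read 8.31, 8.2 and 7.78 in Namalwa and 5.99, 6.18 and 5.44 in Raji, the lowest of the 6 groups. Raji was 4.68-fold below Namalwa (-2.23 ± 0.20, adjusted p = 5.42e-08). JAG2 went the same way at a smaller size, with 8.32, 8.03 and 7.92 in Namalwa and 7.36, 7.49 and 7.45 in Raji (-0.66 ± 0.16, adjusted p = 0.00532). Against L428+M, where JAG1 read 7.71, 7.72 and 7.78 and JAG2 read 7.09, 7.2 and 7.41, the Burkitt mean was 0.75 ± 0.17 lower for JAG1 (adjusted p = 0.00154) and 0.53 ± 0.14 higher for JAG2 (adjusted p = 0.00483). The lines differed in both: no Namalwa JAG1 array lay below those of L428+M, and Raji JAG2 arrays overlapped with them. These differences of 1 line from L428+M were not tested.

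JAG1 rose with the drugs in L428-PAX5. L428-PAX5+M read 7.63, 7.23 and 7.33, and L428-PAX5+MAT read 8.82, 8.7 and 8.23, a rise of 2.27-fold (1.18 ± 0.20, adjusted p = 1.39e-04) with no overlap. Without drugs, L428-PAX5 differed from L428 by -0.34 ± 0.20 (adjusted p = 0.314). In L428 the arrays with drugs read 8.18, 8.09 and 7.86, also above all 3 without drugs, but the change of 0.31 ± 0.20 did not pass (adjusted p = 0.526). The interaction of line and drugs was 0.87 ± 0.28 (adjusted p = 0.0389, background 16.2%, with 5.64% higher and 10.6% lower) and was the only one of the 10 to pass (4 had an unadjusted p below 0.05). That call was lost on leaving out any 1 of 9 of the 12 arrays, in fits that had no replicate block. These were L428+M replicates 1 to 3 (0.85 to 0.89), L428+MAT replicates 2 and 3 (0.9 and 0.78), L428-PAX5+M replicates 2 and 3 (0.79 and 0.84) and L428-PAX5+MAT replicates 1 and 2 (0.76 and 0.82). In a fit blocked on the replicate number, the interaction passed for JAG1 (adjusted p = 0.005), NOTCH1 (0.79, adjusted p = 0.0107) and NOTCH2 (0.58, adjusted p = 0.0292), against 1 of 10 without it. The number pairs the arrays of the L428 groups, but the same block was also laid on the Raji and Namalwa arrays. The block also raised the share of all genes that passed to 25.7%, so 3 of 10 lay near the background. Under the drugs JAG1 was 0.54 ± 0.20 higher in L428-PAX5 than in L428 (adjusted p = 0.0435). It failed the threshold on leaving out L428+MAT replicate 1 (0.61), 2 (0.56) or 3 (0.45) or L428-PAX5+MAT replicate 1 (0.42) or 2 (0.48), and with only these groups in the fit (0.54, adjusted p = 0.0724). JAG2 values were 7.36, 7.43 and 7.1 without drugs and 7.76, 7.56 and 7.13 with drugs in L428-PAX5, which overlapped (0.19 ± 0.16, adjusted p = 0.432).

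The stretches before the JAG1 and JAG2 starts are shown because 5-aza-2'-deoxycytidine acts on CpG dinucleotides and only 1 of these ligands rose. They are the 250 bases upstream of the RefSeq start in GRCh38.p14, written 5′ to 3′ on the gene's strand, with CpG dinucleotides in capitals. JAG1 lies on the minus strand at chr20:10674000-10674249 and JAG2 on the minus strand at chr14:105168777-105169026.
JAG1: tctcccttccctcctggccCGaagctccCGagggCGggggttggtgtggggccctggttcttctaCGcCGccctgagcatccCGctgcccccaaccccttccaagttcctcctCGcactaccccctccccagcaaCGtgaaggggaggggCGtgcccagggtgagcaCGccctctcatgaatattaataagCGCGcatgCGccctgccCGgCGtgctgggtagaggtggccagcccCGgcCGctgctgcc
JAG2: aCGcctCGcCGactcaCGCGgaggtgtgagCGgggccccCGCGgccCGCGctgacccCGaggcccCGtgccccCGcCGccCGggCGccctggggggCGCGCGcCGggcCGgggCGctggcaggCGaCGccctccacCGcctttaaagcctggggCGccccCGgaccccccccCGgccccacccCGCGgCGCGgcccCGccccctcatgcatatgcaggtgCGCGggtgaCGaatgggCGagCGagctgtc
JAG1 had 17 CpG in this window and JAG2 38, where the median of 35116 such RefSeq windows was 11. NOTCH1 (33) and NOTCH2 (29), which rose, and NOTCH3 (28), which did not pass, were likewise above the median. The difference between JAG1 and JAG2 in drug response was not tested. Both drugs were always given together, so their effects cannot be told apart. DNA methylation was not measured, so whether any of these windows was methylated or lost methylation was not tested.

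MFNG and DTX1 marked the Burkitt lines. MFNG encodes Manic Fringe, a glycosyltransferase that adds sugars to Notch and shifts its choice of ligand, and DTX1 encodes Deltex, a ubiquitin ligase that binds the Notch intracellular part and is itself a Notch target. MFNG read 10.92, 10.95 and 10.72 in Raji and 11.66, 11.56 and 11.15 in Namalwa, against 5.04, 5.15 and 5.12 in L428+M. The measured signals differed by 66.7-fold (6.06 ± 0.15, n = 6 against 3, adjusted p = 3.68e-16). DTX1 read 11.07, 11.13 and 10.67 in Raji and 11.37, 11.11 and 10.93 in Namalwa, against 6.28, 6.21 and 6.21 in L428+M, a 28-fold difference in signal (4.81 ± 0.15, adjusted p = 4.15e-15). The L428+M level of MFNG, 5.1, was that of the T-cell gene CD3E (5.06), and neither gene was shown to be above background in L428, so these folds may understate the differences. No array of any L428 group came near the Burkitt arrays for either gene. The mean of the measured B-cell markers was high on the same arrays (10.01 to 11.25, against 6.11 to 6.46 in L428 and L428-PAX5). Single markers departed from it: MS4A1 was low in Namalwa (5.78, 5.9 and 6.72), and CD37 averaged 9.64 in L428+M. The part of these markers in the MFNG and DTX1 differences was not tested. In bulk RNA, fewer cells with a transcript and less of it per cell cannot be told apart.

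MFNG and DTX1 stayed far below the Burkitt level in L428-PAX5 and in both groups with drugs. MFNG read 5.36, 5.47 and 4.94 in L428-PAX5+M, 5.4, 5.58 and 5.11 in L428+MAT and 5.53, 5.84 and 5.44 in L428-PAX5+MAT, where the highest array was still far below the lowest Burkitt array (10.72). Its changes within the L428 groups lay between 0.16 and 0.34. None passed without a block, and the drug change in L428-PAX5 (0.34) passed with the replicate block (adjusted p = 0.0298). DTX1 read 5.93, 5.86 and 6.25 in L428-PAX5+M, 6.09, 5.97 and 6.17 in L428+MAT and 5.87, 6.32 and 5.76 in L428-PAX5+MAT. Its changes within the L428 groups lay between -0.22 and -0.03 and did not pass. Between the Burkitt lines MFNG was 0.59 ± 0.17 lower in Raji (1.51-fold, adjusted p = 0.0179), a call lost without Raji replicate 3 (-0.52) or Namalwa replicate 1 (-0.49) or 2 (-0.54), and DTX1 differed by -0.18 ± 0.17 (adjusted p = 0.583). Background correction compresses dim signals, and the L428 values of both genes lay below the median of all values (6.62).

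RBPJ, the DNA-binding partner through which all Notch receptors act, was lower in L428-PAX5. It read 10.7, 11.12 and 10.72 in L428+M, 10.86, 10.69 and 10.98 in Raji and 11.01, 11.06 and 10.92 in Namalwa, so these groups overlapped and the Burkitt mean differed from L428+M by 0.08 ± 0.15 (adjusted p = 0.776). L428-PAX5+M read 9.97, 9.88 and 9.96, below every one of those arrays and 1.88-fold below L428+M (-0.91 ± 0.17, adjusted p = 8.06e-04). With drugs, L428-PAX5 read 9.6, 9.09 and 9.78 and L428 10.52, 10.83 and 10.4, a 2.13-fold difference (-1.09 ± 0.17, adjusted p = 6.10e-05). RBPJ in L428-PAX5 thus lay farther from the Burkitt arrays than in L428. The drug change in L428-PAX5 was -0.44 ± 0.17 with an adjusted p = 0.0506, and it passed with the replicate block (adjusted p = 0.041), without L428-PAX5+MAT replicate 3 (-0.59, adjusted p = 0.0135), among brighter genes only (adjusted p = 0.0398) and with the mean of its probe sets (adjusted p = 0.0312). It shrank to -0.24 without L428-PAX5+MAT replicate 2 (adjusted p = 0.289) and to -0.20 with quantile normalization repeated (adjusted p = 0.38), and did not pass with only these groups in the fit (adjusted p = 0.127). A second RBPJ probe set gave group means of 7.35 in L428+M, 6.62 in L428-PAX5+M, 6.18 in L428-PAX5+MAT, 7.42 in Raji and 7.41 in Namalwa, the same direction. RBPJ has near-identical copies in the genome, so its signal is uncertain in that respect.

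HES1 had the largest change of the 10 genes between L428-PAX5 and L428. HES1 is a repressor that Notch switches on in many tissues, though other signals also control it. L428+M read 6.8, 6.15 and 6.34 and L428+MAT read 6.73, 6.84 and 6.52, whereas L428-PAX5+M read 9.39, 9.49 and 9.13 and L428-PAX5+MAT read 9.52, 9.63 and 9.53. Without drugs the difference was 7.52-fold (2.91 ± 0.15, adjusted p = 4.81e-10) and with drugs 7.28-fold (2.86 ± 0.15, adjusted p = 3.88e-10), with no overlap. Without L428+M replicate 1, where PAX5 and HES1 were both the highest of their group, the first value was 3.09 (adjusted p = 4.18e-10). The drug difference of HES1 was 0.27 ± 0.15 in L428 (adjusted p = 0.462) and 0.22 ± 0.15 in L428-PAX5 (adjusted p = 0.315), and the interaction was -0.05 ± 0.22 (adjusted p = 0.927). In Raji HES1 read 8.96, 9.03 and 9.11 and in Namalwa 8.72, 8.64 and 8.49, together 5.26-fold above L428+M (2.40 ± 0.13, adjusted p = 2.41e-11). Every L428-PAX5 array lay above every Burkitt array, with 9.13 as the lowest of the former and 9.11 as the highest of the latter. This difference was not tested. Raji was above Namalwa on every array by a mean of 0.42 ± 0.15 (adjusted p = 0.0696), which passed with the replicate block (adjusted p = 0.0371), with array medians subtracted (adjusted p = 0.017), with quantile normalization repeated (adjusted p = 0.0365) and with only these groups in the fit (adjusted p = 0.0287).

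The windows before the starts of HES1 and RBPJ are shown because they hold the RBPJ core motif and these genes moved in opposite directions in L428-PAX5. The 250 bases upstream of the RefSeq start (GRCh38.p14) of HES1, on the plus strand at chr3:194135898-194136147, and of the 1 of 5 RBPJ starts whose window holds the motif, on the plus strand at chr4:26319496-26319745, are written 5′ to 3′. Capitals mark GTGGGAA or its core TGGGAA on either strand.
HES1: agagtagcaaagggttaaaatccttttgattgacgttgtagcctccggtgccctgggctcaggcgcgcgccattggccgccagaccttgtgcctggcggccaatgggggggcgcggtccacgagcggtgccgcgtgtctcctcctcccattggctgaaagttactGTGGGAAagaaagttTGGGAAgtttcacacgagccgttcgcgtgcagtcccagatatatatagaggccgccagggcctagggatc
RBPJ: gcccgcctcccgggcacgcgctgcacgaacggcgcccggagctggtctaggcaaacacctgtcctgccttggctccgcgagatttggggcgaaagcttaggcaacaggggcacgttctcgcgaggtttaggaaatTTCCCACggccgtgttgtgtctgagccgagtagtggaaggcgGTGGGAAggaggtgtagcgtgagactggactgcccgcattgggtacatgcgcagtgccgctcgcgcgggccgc
In HES1 the motif GTGGGAA begins 85 bases before the start and a second core TGGGAA 70 bases before it, both on the gene's strand. In RBPJ the motif occurs once on the opposite strand, in the bases that begin 115 before the start, and once on the gene's strand, beginning 73 before it. GTGGGAA occurred on either strand in 5.43% of the 35116 windows, and more than once in 0.17%. The core TGGGAA, of which HES1 had 2, occurred in 20.85% of the windows, and 2 or more times in 2.9%. Windows were at hand for 7 of the 10 genes. Those of NOTCH1, NOTCH2, NOTCH3, JAG1 and JAG2 had neither form, and DTX1, MFNG and HEY1 had no entry. A match is a run of letters and not a measured binding site.

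HEY1, the other repressor that Notch induces, rose with the drugs in L428-PAX5. L428+M read 6.74, 6.46 and 6.29 and L428-PAX5+M read 7.3, 6.73 and 6.53, which overlapped (0.36 ± 0.20, adjusted p = 0.279). L428-PAX5+MAT read 7.89, 8.3 and 7.56, above every other array of the series, and the drug change in L428-PAX5 was 2.09-fold (1.06 ± 0.20, adjusted p = 4.10e-04). In L428 with drugs it read 6.79, 7.04 and 6.75, a change of 0.36 ± 0.20 that did not pass (adjusted p = 0.431). The interaction was 0.70 ± 0.28 (adjusted p = 0.103), so the responses of the lines were not shown to differ. It passed without L428-PAX5+M replicate 1 (0.92, adjusted p = 0.028) or L428-PAX5+MAT replicate 3 (0.88, adjusted p = 0.0289). Raji (6.62, 6.63 and 6.79) and Namalwa (6.62, 6.69 and 6.92) overlapped with L428+M, and the Burkitt mean differed from it by 0.22 ± 0.17 (adjusted p = 0.406).

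**Figure D3:**
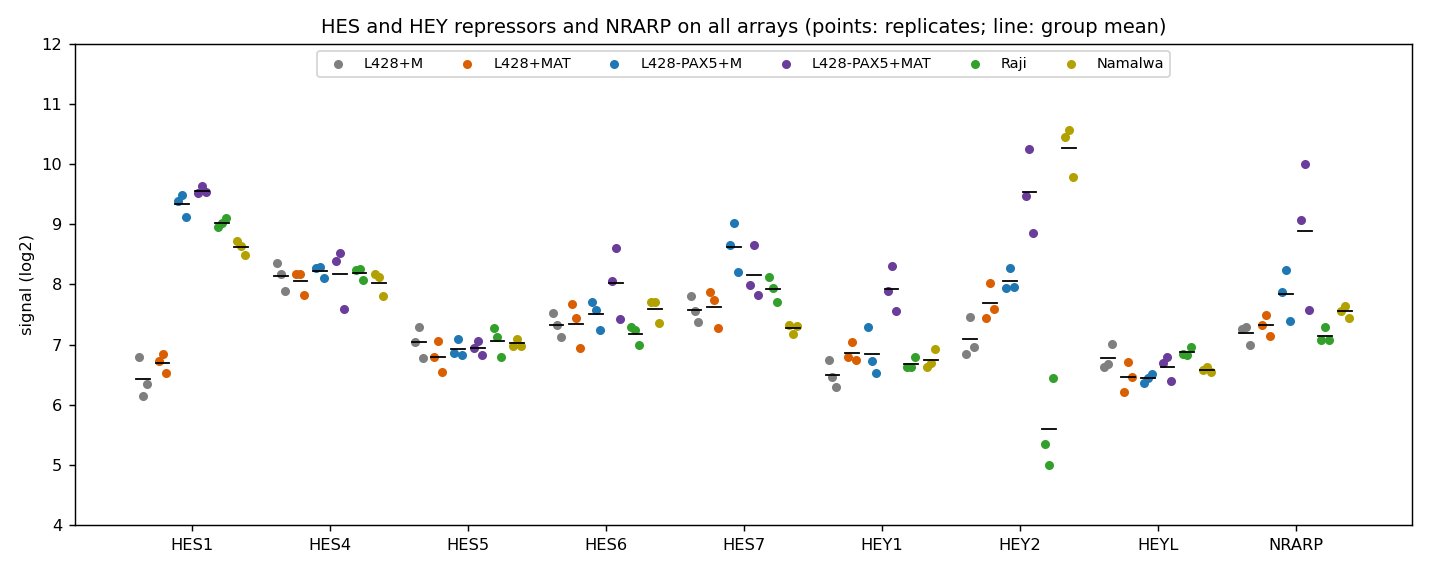
Signal (log2, vertical axis) of HES and HEY repressors and NRARP, which are Notch targets, with 1 point per array, coloured by group, and a line at each group mean. HES1 was at 9.13 or above on all L428-PAX5 arrays, HES4 group means stayed between 8.03 and 8.22, and HEY2 ran from 5.6 in Raji to 10.27 in Namalwa.

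Further targets were mixed. Of 13 further targets, 3 rose and 2 fell between L428+M and L428-PAX5+M, against 9.72% and 6.55% of all genes. HES7 was 2.06-fold higher (1.04 ± 0.22, adjusted p = 0.0028), while GATA3, a T-cell factor that Hodgkin cells also express, was 2.01-fold lower (-1.01 ± 0.17, adjusted p = 3.03e-04). HES4, HES5, HEY2 and HEYL, the 4 of 10 target genes with a window in which GTGGGAA was found, did not pass there. Of these, HEY2 changed by 0.97 ± 0.34 (adjusted p = 0.0639) and HEYL by -0.33 ± 0.15 (adjusted p = 0.153). Their arrays did not overlap between the 2 groups. HES4 had group means from 8.03 to 8.22 and HES5 from 6.8 to 7.06 over all 6 groups.

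HEY2 and NRARP, a feedback inhibitor that Notch itself induces, were highest of the L428 groups in L428-PAX5+MAT. HEY2 read 9.47, 10.26 and 8.86 there against 7.94, 8.27 and 7.95 in L428-PAX5+M, a rise of 2.78-fold (1.48 ± 0.34, adjusted p = 0.00251), and it was 3.57-fold above L428+MAT (1.84 ± 0.34, adjusted p = 3.73e-04). NRARP read 9.08, 10 and 7.58 in L428-PAX5+MAT and 7.87, 8.24 and 7.4 in L428-PAX5+M, which overlapped. Its rise of 1.05 ± 0.37 (adjusted p = 0.0364) was lost without L428-PAX5+M replicate 1 (1.07) or 3 (0.83), without L428-PAX5+MAT replicate 1 (0.95) or 2 (0.49), and with only these groups in the fit (adjusted p = 0.167), and it was 1.71 without L428-PAX5+MAT replicate 3. Against L428+MAT, NRARP was 2.96-fold higher (1.57 ± 0.37, adjusted p = 0.00294), and 1.01 without L428-PAX5+MAT replicate 2. HEY2 also separated the Burkitt lines, with 10.45, 10.57 and 9.79 in Namalwa and 5.35, 5 and 6.44 in Raji (-4.67 ± 0.34, adjusted p = 3.84e-09). The Raji level was not shown to be above background, so the true difference may be larger.

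**Figure D4:**
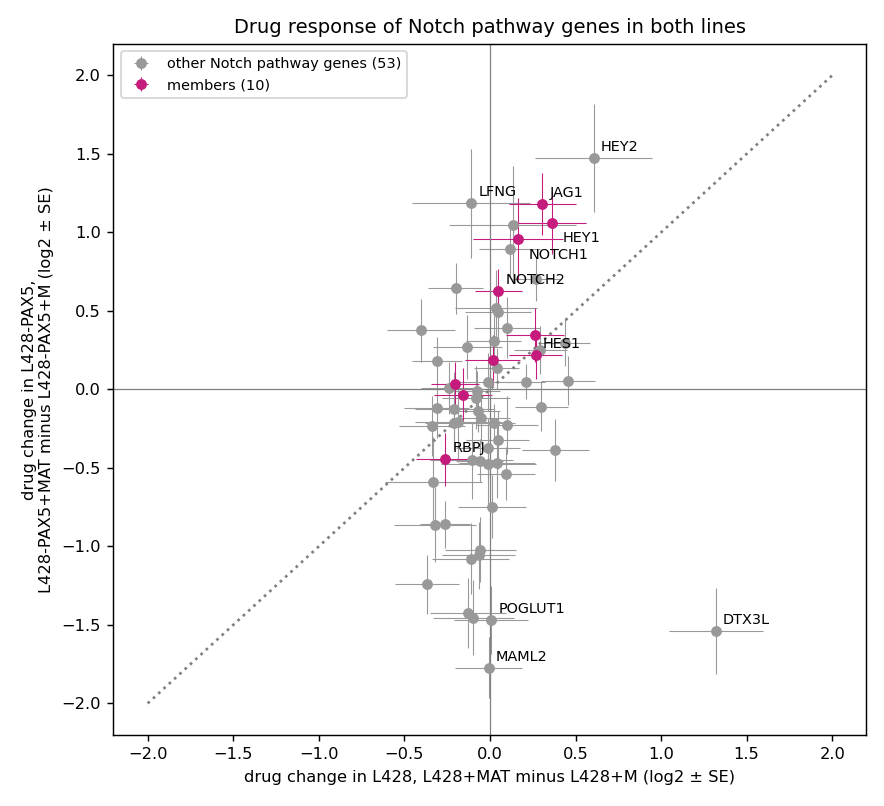
Drug change in L428 (horizontal axis) against drug change in L428-PAX5 (vertical axis), as log2 differences with standard errors, for the 10 Notch genes and 53 other pathway genes, with a dotted line where both would be equal. JAG1, HEY1 and NOTCH1 lay at 1.18, 1.06 and 0.96 on the vertical axis and at 0.31, 0.36 and 0.17 on the horizontal one, and DTX3L rose by 1.32 in L428 and fell by 1.54 in L428-PAX5.

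Around these genes, 53 further genes of the pathway were measured out of 57 listed (ligands, receptor processing, trafficking, nuclear partners and targets). Between L428-PAX5+M and L428+M, 8 were higher and 4 lower, where 9.72% and 6.55% of all genes were. FURIN, the protease that matures Notch receptors among many substrates, led with 2.97-fold (1.57 ± 0.22, adjusted p = 5.34e-05), and MIB1, the ubiquitin ligase that lets ligands signal, was 2.15-fold lower (-1.10 ± 0.19, adjusted p = 4.46e-04). In L428 the drugs raised 1 and lowered none by limma (3 and 1 at an unadjusted p below 0.05), against 4.21% and 0.635% of all genes. The gene that rose was DTX3L, a Deltex relative induced by interferon (2.5-fold, 1.32 ± 0.27, adjusted p = 0.00563).

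In L428-PAX5 the drugs raised 6 and lowered 14 of the 53, where 14.2% and 19.4% of all genes rose and fell, and nothing particular to the pathway is read from these counts. Nuclear partners had 4 of 9 lower and none higher, also at an unadjusted p below 0.05 in the upward direction. MAML2, a Mastermind co-activator of the Notch complex, fell by 1.77 ± 0.19 (adjusted p = 1.83e-06), from 10.8, 11.05 and 10.95 to 9.24, 8.59 and 9.66. Receptor-processing genes had 5 of 13 lower and 1 higher. POGLUT1, which glucosylates Notch, fell by 1.47 ± 0.22 (adjusted p = 4.73e-05), whereas LFNG, the Lunatic Fringe glycosyltransferase, rose by 1.18 ± 0.35 (adjusted p = 0.0122). The LFNG call was lost without L428-PAX5+M replicate 3 (0.95), without L428-PAX5+MAT replicate 1 (1.04) or 2 (0.82), and with only these groups in the fit (adjusted p = 0.054). DTX3L fell by 1.54 ± 0.27 (adjusted p = 2.48e-04), the opposite of its rise in L428, and its interaction was -2.86 ± 0.39 (adjusted p = 1.14e-04). Over the 53 genes 2 interactions were positive and 9 negative. Of all genes 5.64% were positive and 10.6% negative, so calls leaned the same way, and 48.7% of all calls were positive with quantile normalization repeated against 34.7% without. The negative ones included MAML2 (-1.76 ± 0.27, adjusted p = 3.63e-04) and POGLUT1 (-1.48 ± 0.31, adjusted p = 0.00328), and the positive ones, looked up after the count was known, were the Delta ligands DLL1 (0.84 ± 0.23, adjusted p = 0.0158) and DLL4 (0.78 ± 0.25, adjusted p = 0.0418). Like JAG1, both rose with the drugs in L428-PAX5 (DLL1 by 0.64 ± 0.16, adjusted p = 0.00418, and DLL4 by 0.90 ± 0.18, adjusted p = 7.02e-04). DLL4 was dim, at 5.9 in L428-PAX5+M and 6.8 in L428-PAX5+MAT, where the median of all values was 6.62. Neither gene was followed through the alternative fits or the left-out arrays. The median drug change of the 53 genes in L428-PAX5 was -0.18, against 0.28 for the 10 genes and -0.04 for all genes. With brighter genes only (11038 genes above the median in some group) the median of all genes was -0.16. The 53 genes were not filtered in this way, so these medians cover unlike sets.

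Against L428+MAT, 10 of the 53 were higher and 14 lower in L428-PAX5+MAT, where 14.3% and 17.7% of all genes were. LFNG was 1.29 ± 0.35 higher (adjusted p = 0.00695), a call lost without L428-PAX5+MAT replicate 2 (0.93). MSC, a repressor of B-cell genes described as a Notch target in Hodgkin cells, was 4.64-fold lower (-2.21 ± 0.24, adjusted p = 1.09e-06), with 9.48, 8.86 and 9.72 against 11.67, 11.83 and 11.2. MAML2 (-2.08 ± 0.19, adjusted p = 2.26e-07) and DTX3L (-1.92 ± 0.27, adjusted p = 2.54e-05) were lower too.

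In the Burkitt lines, 9 of the 53 were higher than in L428+M and 8 lower, near the background of 18.7% and 16.7%. DTX4, another Deltex ligase, was 3.16-fold higher (1.66 ± 0.14, adjusted p = 1.18e-08), the co-repressor SPEN 2.57-fold (1.36 ± 0.17, adjusted p = 2.12e-06) and FBXW7, which marks the Notch intracellular part for degradation, 2.1-fold (1.07 ± 0.12, adjusted p = 6.49e-07). MSC was lower by a log2 difference of -6.14 ± 0.20 (adjusted p = 1.57e-14), GATA3 by -5.74 ± 0.15 (adjusted p = 5.29e-16) and the atypical ligand DNER by -4.08 ± 0.25 (adjusted p = 8.14e-11). Their Burkitt means of 5.5 to 5.81 were not shown to be above background, so the true differences may be larger. MSC was still far above its Burkitt level on every L428-PAX5+MAT array. Raji and Namalwa differed in 17 of the 53, with 6 higher and 11 lower in Raji, against 7.74% and 11.5% of all genes. Of all calls 40.2% were higher in Raji, and 53.4% with array medians subtracted. MAML2 was 8.53-fold higher in Raji (3.09 ± 0.19, adjusted p = 3.89e-10), as were DTX3L (1.28 ± 0.27, adjusted p = 0.00189) and ADAM17, a protease that cuts bound Notch (1.26 ± 0.20, adjusted p = 9.05e-05). The ligand DLL3 (-2.24 ± 0.23, adjusted p = 4.56e-07) and APH1B, a gamma-secretase subunit (-2.01 ± 0.18, adjusted p = 8.31e-08), were lower in Raji.

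The group means of MFNG spanned 6.36 on the log2 scale, more than those of 99.7% of all genes, and those of DTX1 spanned 5.15 (98.8%), with lowest levels not shown to be above background. HES1 (3.13, 94.5%) and JAG1 (2.71, 92.6%) followed, while NOTCH1, NOTCH2, RBPJ and HEY1 spanned 1.42 to 1.86 and JAG2 0.86. Among the 10 genes, 4 thus had highest and lowest group means at least 2 apart on the log2 scale, and the genes closest to each in pattern were sought over the 6 group means, after each gene's own mean was subtracted. The measure was the root-mean-square difference on the log2 scale. For DTX1 the closest were POU2AF1 (0.19), BLNK (0.20) and MILR1 (0.20), and for MFNG SLAMF6 (0.14), YBX3 (0.29) and CD79A (0.30). JAG1 was closest to TPST1 (0.12), EPG5 (0.15) and BPGM (0.17). HES1 had no match as close, with NSMF at 0.34, DHRS11 at 0.58 and ODC1 at 0.61.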

How the data were processed

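Biotin-labelled RNA of 18 samples was measured on Affymetrix whole-transcript arrays. The authors deposited 1 log2 value for each probe set and sample. The submitters' processing notes name RMA, which corrects background, normalizes and summarises probes, and the Partek software; their versions are not given in the sources used here. Of 33297 probe sets, 19460 carry 1 gene symbol in the platform annotation, 1754 several and 12083 are not listed there. Gene identifiers of 19429 matched RefSeq (GRCh38.p14) and no symbol changed. Keeping the brightest probe set per gene left 18417 genes. No detection calls were used, no coordinates of probe sets are given, and signals are compared between samples, not between genes. The number of arrays limits the precision.

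From these values, group means were fitted with limma 3.58.1 (lmFit, eBayes, no trend) in R 4.3.3 over all 18 arrays, with 12 residual and 6.1 prior degrees of freedom, two-sided tests and Benjamini-Hochberg adjustment over all genes. The fit was also run on simulated arrays whose noise was independent between arrays. That run cannot check the fit under the pairing by replicate number described below. The threshold was an adjusted p of 0.05. Tables and plots used Python 3.11.15, pandas 2.3.3, numpy 2.4.6 and matplotlib 3.10.9. Promoter windows came from RefSeq. The members, lists and tests were chosen with earlier results of these data known.

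Named genes are the 10 members, PAX5, and of the other pathway genes the 3 largest rises and falls per comparison that passed with at least a 2-fold change, plus the 3 genes closest in pattern to members with a span of at least 2. NOTCH4, HES4, HES5, HEYL, DLL1, DLL4, CD3E, CD7, COL1A1, MS4A1, CD37, TNFRSF8, CSF1R and the endothelial markers were named after their values were seen. Alternatives were a fit of the compared groups only, the replicate number as a block, array medians subtracted, quantile normalization repeated, brighter genes only, an intensity trend, the mean of probe sets, and leaving out each array. The fits with an array left out had no block. Arrays with the same replicate number deviated together: the correlation of their deviations from group means was 0.273 to 0.655 between L428 groups and 0.325 to 0.541 between Raji and Namalwa, so the numbers pair these arrays. Between L428 groups and Burkitt lines it was mixed. It was -0.014 for replicate 2 of L428+M with Namalwa and 0.51 for replicate 3 of L428-PAX5+M with Namalwa. Arrays with unlike numbers reached 0.451 (L428+M replicate 2 with Namalwa replicate 1). Whether L428 and Burkitt arrays share a batch was not tested.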

Additional observations from a re-analysis of the deposited data

Results flagged for a closer look

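JAG1 was picked out because the drugs changed it differently in the 2 lines by a test of that difference. Its interaction of line and drugs was 0.87 on the log2 scale, from a rise of 1.18 in L428-PAX5 and a change of 0.31 in L428. In L428-PAX5 all 3 arrays with drugs lay above all 3 without, and in L428 likewise. The call was lost on leaving out any 1 of 9 of the 12 arrays, with values from 0.76 to 0.9. Those fits had no replicate block. With the block and all arrays the interaction passed in limma (adjusted p = 0.005).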

How the results depend on the processing

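Of the 23 passing changes of the 10 genes, 2 were lost in the 7 alternatives that kept all compared arrays. Both were between L428-PAX5+MAT and L428+MAT, where 3 of 10 genes passed instead of 5 with only these groups in the fit. Calls over all 18417 genes went from 5898 to 4573 there. The interaction had 1 gene passing, against 3 with the replicate number as a block, and 2 with array medians subtracted, with quantile normalization repeated or with brighter genes only. Over all genes it had 2990 calls, 4730 with the block, 2855 with medians subtracted and 2892 with quantile normalization repeated. Among the 11038 brighter genes it had 2887. With the block, 6 in place of 4 passed for the drugs in L428-PAX5, where calls over all genes rose from 6204 to 7739. The other counts moved by less than 1.5 times, and the single calls the block changed are given above. Leaving out 1 array gave 0 to 4 passing genes for the interaction, where 2171 to 3956 of all genes passed. It gave 3 to 6 for L428-PAX5+MAT against L428+MAT (4966 to 6162 of all genes). For the drugs in L428-PAX5 it gave 3 to 5 (4900 to 6351 of all genes). For Raji against Namalwa it gave 4 to 5 (2854 to 3114 of all genes). Member counts in the other comparisons stayed the same (2, 0 and 6).

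The only sign changes were in values that passed nowhere. With array medians subtracted these were JAG2 under the drugs in L428 (-0.03) and HEY1 between Raji and Namalwa (0.04). With quantile normalization repeated they were JAG2 (-0.04) and HEY1 (0.01) in the same comparisons, NOTCH1 between L428-PAX5+M and L428+M (-0.00041), NOTCH3 under the drugs in L428-PAX5 (-0.01), and the interactions of HES1 (0.24), MFNG (-0.01) and RBPJ (0.05). That setting also brought HES1 under the drugs in L428-PAX5 (0.46) and NOTCH2 in L428-PAX5+MAT against L428+MAT (0.49) past the threshold. The cause was not tested. Leaving out 1 array turned the sign of 15 values that did not pass. Between L428-PAX5+M and L428+M these ran from -0.09 to 0.2 (NOTCH1) and -0.01 to 0.16 (JAG2), and for the drugs in L428 from -0.04 to 0.1 (NOTCH2) and -0.06 to 0.1 (JAG2). For the drugs in L428-PAX5 they ran from -0.06 to 0.1 (NOTCH3) and -0.2 to 0.09 (DTX1), and between L428-PAX5+MAT and L428+MAT from -0.01 to 0.16 (NOTCH3) and -0.27 to 0.01 (DTX1). The interactions ran from -0.23 to 0.09 (HES1), -0.08 to 0.19 (MFNG), -0.04 to 0.24 (DTX1) and -0.33 to 0.02 (RBPJ). In the Burkitt comparison they ran from -0.13 to 0.13 (NOTCH1) and -0.09 to 0.11 (NOTCH3), and between Raji and Namalwa from -0.12 to 0.03 (HEY1).

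Over all genes, the drugs in L428 gave 892 calls, 1592 with the block and 593 with only these groups, and the interaction 2990 and 4730 with the block. The share of calls that were higher went from 34.7% to 48.7% for the interaction under repeated quantile normalization and from 40.2% to 53.4% for Raji against Namalwa with array medians subtracted, which put the median of all genes at 0.14 there.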

Other observations

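Replicate 3 read lowest of its group for 8 of the 10 genes in L428-PAX5+MAT, where it was lowest for 42.2% of all genes, and for 9 of the 10 in Namalwa, where the share was 43.9%. In L428-PAX5+M the counts were 7 of 10 and 37.1%. Its part in the rises of NOTCH1, JAG1 and HEY1 was not tested beyond leaving it out and the replicate block. With the block in limma, NOTCH1 rose by 0.96 ± 0.15 (adjusted p = 5.45e-05) with the drugs in L428-PAX5. JAG1 rose by 1.18 ± 0.15 (adjusted p = 4.87e-06) and HEY1 by 1.06 ± 0.19 (adjusted p = 1.58e-04).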
